A study of Mus musculus with 6 samples.

Results

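The 3 control libraries of a mouse melanocyte small RNA study were described on their own, without any contrast with the 3 libraries of MITF-overexpressing cells. A row of the deposited microRNA table was kept when it carried a mouse microRNA name and held at least 10 reads in each control library. Of 1560 rows, 506 carried a mouse name, and 241 of these passed, here termed member rows. The cells were melan-alpha, immortalised melanocytes that make pigment. Their labels give mouse skin as the tissue, Mitf_control as the genotype and extracellular vesicle as the source. They were grown in RPMI 1640 with 10% fetal bovine serum, and libraries were prepared with the TruSeq small RNA kit. The sources used here do not give whether the controls received an empty virus. The extraction protocol mentions collected and washed cells and gives no step for isolating vesicles, so all values refer to libraries that are labelled, but not otherwise described, as vesicle RNA. All 3 came from 1 cell line, and the labels do not say that they were separate cultures, so the spread between them may be technical. In such bulk libraries, fewer cells of a type and less RNA per cell cannot be told apart.

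MicroRNAs are short RNAs cut from a hairpin precursor. Either side of the hairpin, the 5p or the 3p arm, can be loaded into an Argonaute protein, which it guides to partly complementary messenger RNAs. Bases 2 to 8, the seed, carry most of the recognition, so microRNAs with the same seed are treated as a family. Cutting and trimming can shift either end of a microRNA. A shifted 3′ end leaves the seed in place, and a shifted 5′ end changes it. Cells release microRNAs in extracellular vesicles, small membrane-bound particles that melanocytes and other cells shed.

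The seed families that held most reads are shown first, with the seed in capitals. The let-7 microRNAs, which repress growth genes and accumulate as cells differentiate, made up the largest family. Their mature sequences, from RefSeq on GRCm38.p6, differed from let-7a-5p outside the seed. Positions are counted from 1 at the 5′ end of let-7a-5p, whose base is written first.
let-7a-5p: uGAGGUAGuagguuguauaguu
let-7b-5p: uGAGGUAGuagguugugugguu
let-7c-5p: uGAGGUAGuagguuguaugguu
let-7g-5p: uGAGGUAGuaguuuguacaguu
let-7i-5p: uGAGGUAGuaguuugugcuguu
let-7f-5p: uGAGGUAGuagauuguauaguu
let-7d-5p: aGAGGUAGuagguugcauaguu
let-7e-5p: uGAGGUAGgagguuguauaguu
miR-98-5p: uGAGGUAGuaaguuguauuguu
Let-7c-5p differed by A19G, let-7b-5p by A17G and A19G, let-7f-5p by G12A, let-7g-5p by G12U and U18C, and let-7i-5p by G12U, A17G, U18C and A19U.

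The miR-30 family came second. The most abundant single row was not the reference miR-30a-5p but a form 2 bases longer at its 3′ end, which the table marks R+2. The reference is from RefSeq, and the other sequences are those of the deposited rows with T written as U.
miR-30a-5p, reference: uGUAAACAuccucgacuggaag
miR-30a-5p_R+2: uGUAAACAuccucgacuggaagcu
miR-30e-5p_R+2: uGUAAACAuccuugacuggaagcu
miR-30c-5p_R+1: uGUAAACAuccuacacucucagcu
The leading rows of other large families and the melanocyte microRNA miR-211-5p, whose values follow, had these sequences.
miR-146a-5p: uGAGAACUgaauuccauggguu
miR-21a-5p: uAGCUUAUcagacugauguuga
miR-27b-3p: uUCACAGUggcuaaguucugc
miR-10b-5p_R-1: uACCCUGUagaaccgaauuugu
miR-99a-5p_R-1: aACCCGUAgauccgaucuugu
miR-423-5p: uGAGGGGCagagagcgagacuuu
miR-25-3p: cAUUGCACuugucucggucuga
miR-211-5p: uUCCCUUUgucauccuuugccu

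The control libraries held 12759646, 14018028 and 16275268 raw reads, of which 342941, 382350 and 475977 were placed in rows of the microRNA table. Mouse-named rows took 80.3%, 70.4% and 70.5% of these tabulated reads, predicted rows 17.9%, 25.8% and 26.97%, and cow-named rows 1.54%, 3.34% and 2.13%. Which reads came from the serum in the medium was not tested. Member rows held 99.7%, 99.6% and 99.5% of mouse-named reads. Levels below are shares of mouse-named reads, as counted reads and not as molecules. Among the 20 most abundant rows, the Wilson 95% interval of a share reached at most 0.0980 percentage points to either side. Intervals cover counting error only, since reads carried no molecular identifiers.

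The repertoire was led by a few microRNAs. The 10 most abundant rows held 48.3%, 42.3% and 45.5% of mouse-named reads (45.4% ± 3.01, SD, n = 3), and the first 20 held 64.2% ± 2.01. It took 11, 13 and 12 rows to reach 50% of reads and 58, 65 and 62 rows to reach 90%. At the other end, 98 rows had under 100 mean reads and together held 1.64% ± 0.228. The same rows led each library: 10 were among the first 10 in every control, and 11 were among them in any control, with rows of equal reads given the same rank.

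The longer miR-30a-5p row took 7.34%, 5.70% and 5.06% of reads (6.03% ± 1.17), from a precursor at chr1:23272269-23272339 on the plus strand, outside annotated genes. MiR-146a-5p, a feedback repressor of NF-kappa-B signalling, took 5.93%, 5.82% and 6.22% (5.99% ± 0.208) and lies at chr11:43374397-43374461 on the minus strand, also outside annotated genes. MiR-21a-5p, an abundant microRNA of dividing and injured tissue, took 7.06%, 5.31% and 5.45% (5.94% ± 0.971). Its precursor at chr11:86584067-86584158 on the minus strand overlaps an exon of Vmp1. The ranges of these 3 rows overlapped, so their order was not resolved: miR-30a-5p_R+2 was first in replicate 1, and miR-146a-5p in replicates 2 and 3.

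Let-7g-5p took 4.56% ± 0.219 and let-7i-5p 4.37% ± 0.196, both with little spread. Let-7b-5p took 4.802%, 3.65% and 5.17%, and the miR-30d-5p_R+2 row took 4.92%, 3.83% and 3.59%. These 4 rows overlapped too. MiR-27b-3p, a repressor of fat cell differentiation, followed with 3.44% ± 0.214. The rows let-7c-5p and let-7a-5p_1ss19AG, which hold the same sequence, came next with 3.20% ± 0.416 each. They were followed by miR-10b-5p_R-1 at 2.72% ± 0.1667, encoded within the Hoxd gene cluster in an intron of Hoxd3 (chr2:74726070-74726137, plus strand), the miR-378a-3p_R+1 row at 2.67% ± 0.268, and miR-423-5p at 2.49% ± 0.280, encoded in an intron of Nsrp1 (chr11:77078064-77078172, minus strand). Next were mir-6240-p5_1ss15TG at 1.91% ± 0.669, miR-30e-5p_R+2 at 1.67% ± 0.298 and miR-29a-3p_R-1, a repressor of collagen genes, at 1.56% ± 0.188. The first 20 rows closed with miR-122-5p_R-1 at 1.51% ± 0.572, miR-25-3p at 1.505% ± 0.0743, let-7f-5p at 1.41% ± 0.132 and miR-24-3p_R-2 at 1.32% ± 0.372. A name with lower-case mir and p5 or p3 stands for an arm that is not annotated, as in 11 member rows. The rows mir-6240-p5_1ss15TG and mir-6240-p3_1ss15TG had the same seed, and whether they come from opposite arms of a microRNA hairpin was not tested.

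**Figure D1:**
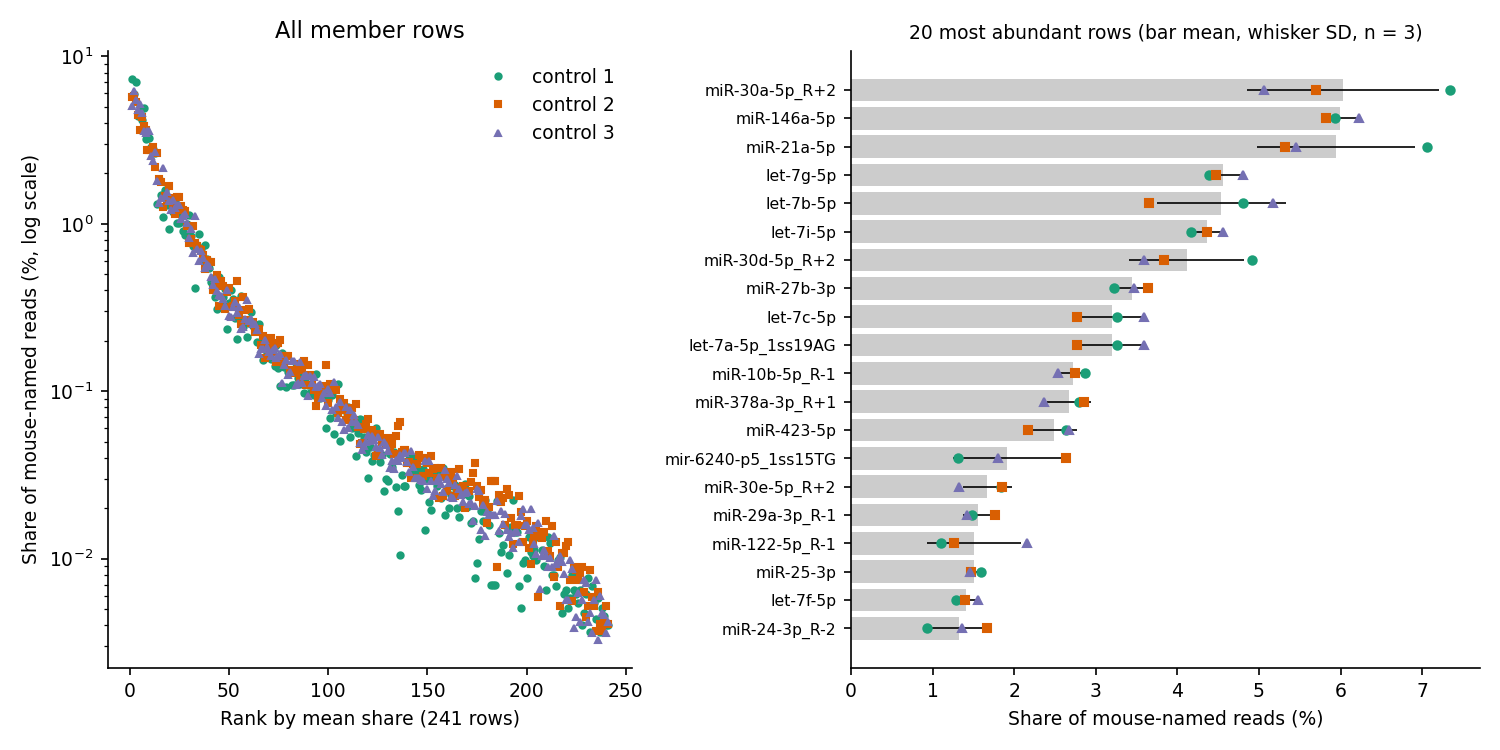
Share of mouse-named reads (%) of the 241 member rows against their rank by mean share (left, log scale) and of the 20 most abundant rows (right), with bars for the mean, whiskers for the SD (n = 3) and a symbol for each control library. The longer miR-30a-5p row, miR-146a-5p and miR-21a-5p lead at about 6.03%, 5.99% and 5.94%, with overlapping symbols.

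The ranking depended on how shared sequences were counted. In all, 11 member rows shared 5 sequences with another member row, and rows of 1 sequence held equal reads in each control, compared to 3 decimals. The let-7c-5p row and the row let-7a-5p_1ss19AG printed the same bases as let-7c-5p above, since A19G turns let-7a-5p into let-7c-5p. Each was listed at 8969, 7445 and 12054 reads. Summed, that sequence took 6.51%, 5.53% and 7.18% of reads (6.41% ± 0.831) and ranked first by mean share, although its range overlapped those of the next 3. In the same way miR-99a-5p_R-1 and miR-100-5p_R-1_1ss16AT were 1 sequence, with 2.499% ± 0.441 in sum. These reads cannot be told apart from the table.

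By seed, the 241 rows fell into 185 families, of which 157 held a single row. The 28 families with several rows had 84 rows and 72.8% ± 0.736 of reads. Let-7 and miR-98, with 11 rows, took 23.8%, 22.1% and 26.1% (23.99% ± 2.05). The miR-30 family, with 5 rows, took 14.7%, 12.3% and 10.7% (12.6% ± 2.005), so the ranges of the 2 largest families did not overlap. They went in different directions between replicates 1 and 3, the let-7 share being higher and the miR-30 share lower in replicate 3. The next families were miR-146 at 6.15% ± 0.208, miR-21a at 5.94% ± 0.971, miR-27 at 4.52% ± 0.370 and miR-10 at 3.45% ± 0.185. After these came miR-99 and miR-100 at 3.01% ± 0.509, miR-378 at 2.75% ± 0.275, miR-25, miR-92 and miR-32 at 2.53% ± 0.0673, and miR-423-5p at 2.49% ± 0.280. The 10 largest families together held 67.4% ± 2.46.

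Within the let-7 family no single row dominated. Let-7g-5p supplied 19.05% ± 1.08 of the family's reads, let-7b-5p 18.8% ± 1.999 and let-7i-5p 18.3% ± 1.31, and their ranges overlapped. The rows let-7c-5p and let-7a-5p_1ss19AG supplied 13.3% ± 0.680 each. Let-7f-5p, let-7d-5p and the reference let-7a-5p followed at 5.90% ± 0.463, 5.43% ± 0.512 and 3.61% ± 0.0759, and miR-98-5p was last at 0.302% ± 0.00888. Counted by sequence, the sum of let-7c-5p and let-7a-5p_1ss19AG led the family in every library. That sequence took 6.41% ± 0.831 of mouse-named reads, against 4.56% ± 0.219 for let-7g-5p. The miR-30 family was more uneven. MiR-30a-5p_R+2 held 47.7% ± 1.88 of it, miR-30d-5p_R+2 32.6% ± 1.32 and miR-30e-5p_R+2 13.3% ± 1.49, whereas miR-30b-5p and miR-30c-5p_R+1 held 3.27% ± 1.01 and 3.12% ± 0.815. Near-identical family members can share reads, so these splits are uncertain.

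**Figure D2:**
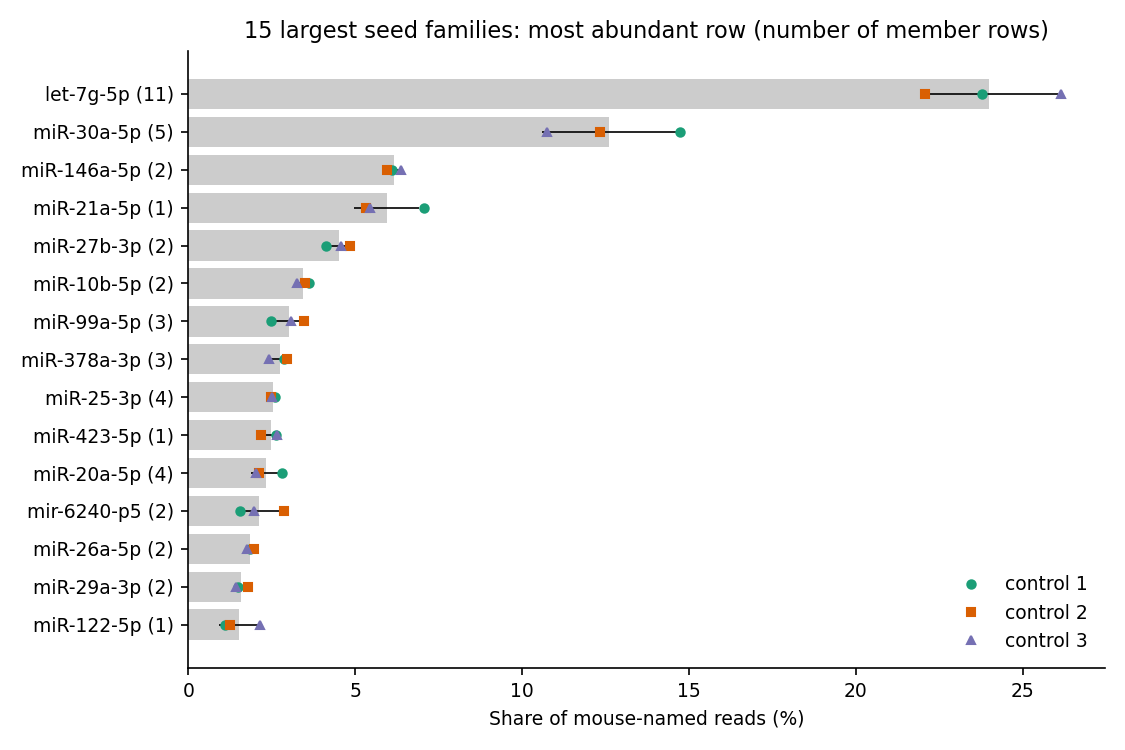
Share of mouse-named reads (%) of the 15 largest seed families, named by their most abundant row with the number of member rows in brackets; bars are means, whiskers SDs (n = 3) and symbols the control libraries. The let-7 family lies between 22.1% and 26.1%, above the miR-30 family at 10.7% to 14.7% in every library.

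Member rows came more from 5p arms. The 116 rows annotated as 5p held 71.7% ± 2.42 of mouse-named reads, and the 101 rows annotated as 3p held 23.8% ± 1.41. Both arms passed the minimum for 47 precursor names, of which 25 had more 5p and 22 more 3p reads. The favoured arm was the same in every control library for 46 of them. The median distance between arms was 2.14 on the log2 scale, a 4.41-fold difference. In 16 precursors the arms were over 10-fold apart, and in 6 they were within 2-fold. The SD of the ratio over the 3 libraries had a median of 0.34 on the log2 scale. It was largest for miR-125a, at 0.976.

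The most lopsided precursor was miR-27b, with 8867, 9816 and 11643 reads for 3p against 17, 12 and 24 for 5p, a 572-fold difference. On the 5p side, let-7b led with 13223, 9819 and 17347 reads against 27, 42 and 36 for 3p (385-fold), followed by miR-30d at 206-fold, miR-17 at 175-fold, miR-10b at 67.0-fold and miR-30e at 56.6-fold. MiR-378a, miR-23a, miR-25 and miR-22 followed miR-27b in favouring 3p, at 60.1-fold, 20.8-fold, 14.0-fold and 7.44-fold. The 5p and 3p reads of these precursors did not overlap.

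Near balance stood miR-362, with 75, 79 and 77 reads of 5p and 82, 100 and 87 of 3p. The log2 ratio of 5p to 3p was 0.58 for miR-425, -0.77 for miR-872 and 0.85 for miR-351. MiR-342 was the exception in direction, with 350, 220 and 356 reads of 5p against 305, 314 and 501 of 3p, so that 5p led only in replicate 1. MiR-211 gave one of the most stable ratios, with 583, 721 and 1169 reads of 5p and 16, 20 and 33 of 3p. Its log2 ratios were 5.19, 5.17 and 5.15, although the reads themselves differed between libraries.

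A further 121 precursor names had only 1 arm past the minimum, and for 89 of them the other arm was listed at 0 or had no row in the 3 controls. MiR-146a was one, with 16320, 15671 and 20884 reads of 5p and 0 of 3p. These precursors have no ratio and are not among the 47. Arms were paired by exact name, so a numbered arm was counted apart from an unnumbered other arm. MiR-24-2-5p_R-1, with 87, 117 and 134 reads, was thus not paired with miR-24-3p_R-2. Likewise let-7a-1-3p_1ss22CT, with 386, 348.5 and 364 reads, was not paired with let-7a-5p. The counts of 121, 89 and 47 names therefore depend in part on naming.

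**Figure D3:**
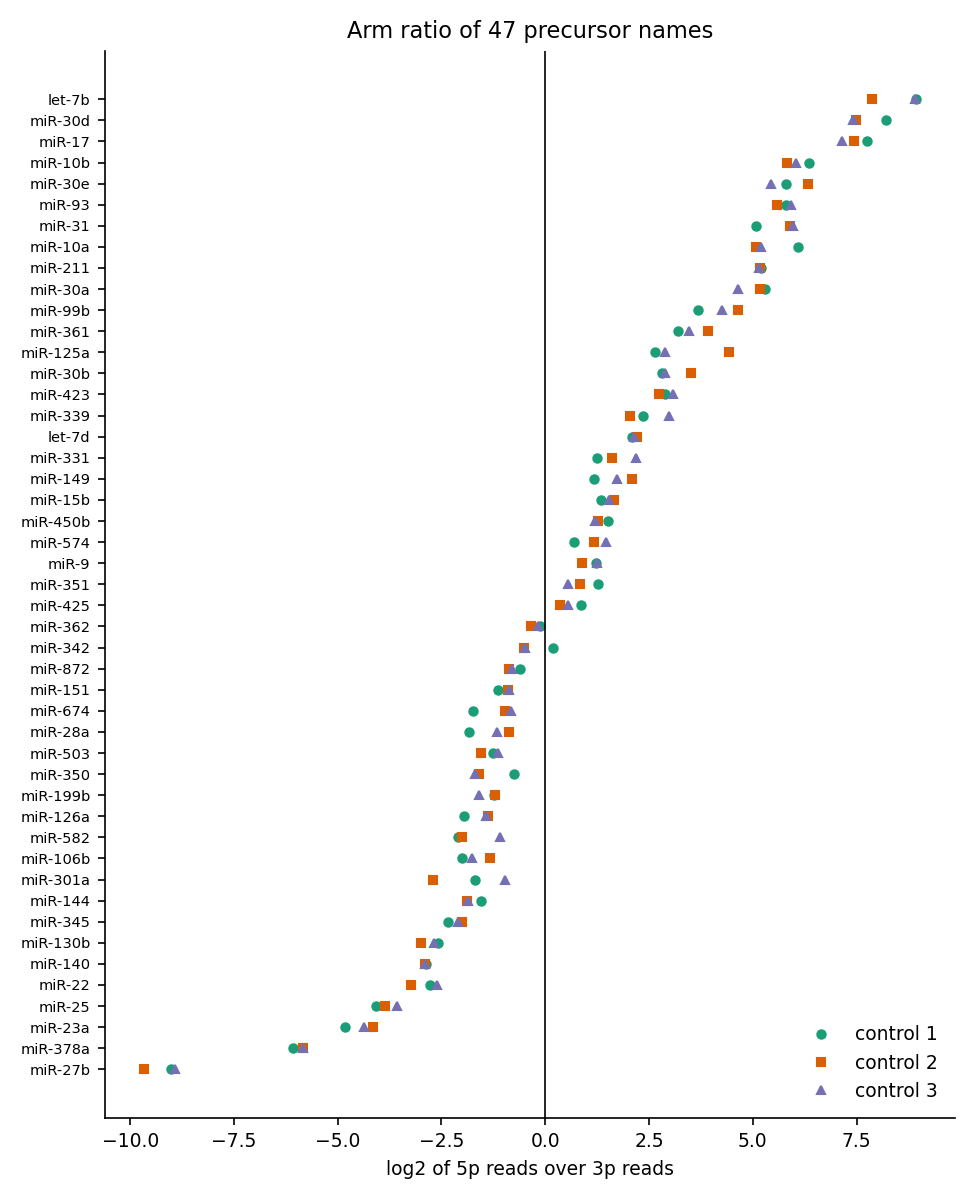
Log2 of 5p over 3p reads for the 47 precursor names with both arms past the minimum, with 1 symbol per control library and a line at equal arms. The precursors run from let-7b near 8.59 to miR-27b near -9.16, and only miR-342 has symbols on both sides of the line.

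Most reads lay in rows with the reference sequence, and variation was mostly at the 3′ end. The table held 1 annotated member row for 226 of 228 mature names, so a suffix describes the sequence printed for a row. The sources used here do not give how reads of other lengths were assigned to that row. Of the 204 rows with a name in RefSeq's table, 193 had no substitution, and the printed sequence of all 193 matched what the suffix says. Rows with the reference sequence numbered 123 and held 59.7% ± 1.37 of member reads. Rows changed only at the 3′ end numbered 77 and held 30.6% ± 1.43, with 48 shorter rows at 12.5% ± 1.28 and 29 longer rows at 18.04% ± 2.19.

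The rows with 2 added bases took 12.1% ± 2.12, although there were only 8 of them, because miR-30a-5p, miR-30d-5p and miR-30e-5p were among these. The added bases of miR-30a-5p_R+2 can be read at the right end of its sequence above. Rows 1 base shorter were more numerous, 32 in all, and held 10.2% ± 0.794, led by miR-10b-5p_R-1. Rows longer at the 3′ end were next counted also where the 5′ end was changed. For 31 of these RefSeq lists the hairpin, and in 28 the added bases are part of the hairpin sequence. The rows miR-652-3p_R+1, miR-542-3p_R+2 and miR-331-3p_R+1 were the exceptions and were named after their values were seen.

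**Figure D4:**
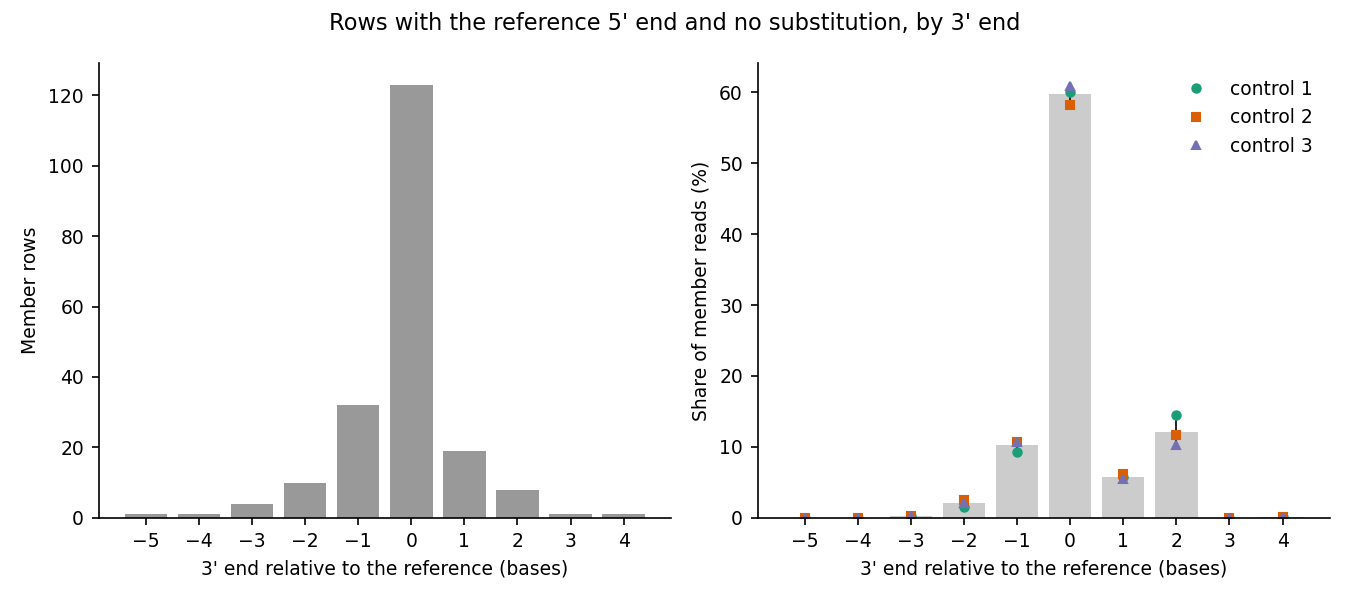
Number of member rows (left) and share of member reads (right, %) by the position of the 3′ end relative to the reference, for rows with the reference 5′ end and no substitution; bars on the right are means with SD (n = 3) and symbols the control libraries. The 8 rows that are 2 bases longer hold 12.1% of member reads, more than the 32 rows that are 1 base shorter at 10.2%.

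A changed 5′ end, which moves the seed, was uncommon, with 24 rows and 1.33% ± 0.121 of member reads. The most abundant was miR-101b-3p_L-1R+4, with 1101, 862 and 933 reads, which starts 1 base inside the RefSeq form of miR-101b-3p. The second member of the pair, miR-101a-3p_L+1R-1, had 221, 197 and 202 reads and starts 1 base earlier than its reference. The sequences show that each took the seed of the other's reference.
miR-101a-3p, reference: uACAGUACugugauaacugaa
miR-101b-3p, reference: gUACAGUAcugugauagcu
miR-101b-3p_L-1R+4: uACAGUACugugauagcugaag
miR-101a-3p_L+1R-1: gUACAGUAcugugauaacuga
The other abundant rows with a changed 5′ end were miR-140-3p_L-1R+2 at 0.187% ± 0.00734, miR-345-3p_L+1R-1_1ss22AT at 0.139% ± 0.0193 and miR-342-5p_L-1R+5 at 0.105% ± 0.0227.

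Rows with a substitution numbered 20 and held 8.58% ± 1.01 of member reads, led by let-7a-5p_1ss19AG, mir-6240-p5_1ss15TG and miR-100-5p_R-1_1ss16AT. The let-7a and miR-100 rows share the sequence of another row as shown above. The others among the first 5 were mir-5108-p3_1ss6TG, of an arm that is not annotated, at 0.762% ± 0.347 and let-7j_R-1_1ss8TG at 0.346% ± 0.0522. The let-7j substitution lies at base 8, within the seed, and the row was counted in the let-7 family by its printed sequence. With families set by reference sequences, the let-7 family held 23.6% of mouse-named reads. Whether the let-7j row is a form of another let-7 microRNA was not tested. Of the 11 substitution rows whose hairpin is in RefSeq's table, 0 were found whole in it. The label itself implies this, since a substitution is a mismatch to the named microRNA. The count does not show whether the sequence is encoded elsewhere.

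A first base of U and a length of 22 bases were more frequent by reads than by rows. A first base of U, which Argonaute's binding pocket is known to favour, was found in 39.4% of member rows and in 40.9% of the 1679 mature mouse microRNAs in RefSeq's table. By reads, rows starting with U held 75.6%, 72.0% and 74.3% of the total (74.0% ± 1.84). The let-7 and miR-30 families, whose sequences printed above start with U except let-7d-5p, held 36.6% ± 2.08 of mouse-named reads. Rows of 22 bases were 41.1% of member rows, against 44.8% of RefSeq mature sequences, and held 56.0% ± 1.67 of member reads. The motifs GGAG and CCCU, which were reported in vesicle-exported microRNAs of other cells, were searched on the RNA strand alone as exact letters. GGAG was found in 34 member rows, or 14.1%, against 14.2% of RefSeq mature sequences, and these rows held 6.41% ± 0.452 of member reads. CCCU was found in 19 rows, or 7.88%, against 11.4% in RefSeq, with 5.08% ± 0.211 of member reads. The miR-10b-5p_R-1 row above holds CCCU within its seed.

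The replicates were close for most abundant rows and wider for rare ones. Across 241 rows, which are not independent replicates and share each library's depth, Pearson's r of the log2 shares was 0.976 for replicates 1 and 2, 0.983 for 1 and 3, and 0.988 for 2 and 3. The coefficient of variation (CV) of a row's share had a median of 17.6%, with quartiles of 10.0% and 27.1%. Counting error alone would give a median of 8.43%, and 199 rows lay above their own counting value. The 28 rows with 10 to 30 mean reads had a median CV of 30.7%, and the 28 rows with 3000 or more had 12.5%. The common biological coefficient of variation from edgeR, which sets counting error apart, was 19.4%.

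Among rows with at least 100 mean reads, miR-192-5p_R-1 had the smallest CV at 1.08%, with 363, 359 and 438 reads. MiR-501-3p_R+1 at 1.145%, miR-26b-5p_R+1 at 1.18%, miR-350-3p at 1.32% and miR-92a-3p_R+1 at 1.81% followed, all at or below their counting error. The largest CV was 70.5%, for miR-2137_L-2R-1_1ss16AG with 29, 177 and 139 reads. MiR-144-3p, of red blood cells, followed with 53, 167 and 128 reads and 53.9%, then mir-5108-p3_1ss6TG with 1138, 2062 and 3715 reads and 45.5%. MiR-127-3p_R-2 with 167, 386 and 273 reads and miR-22-3p with 562, 1233 and 987 reads had CVs of 45.3% and 40.4%. All 5 were lowest in replicate 1.

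Replicate 1 was low in this way more widely. It was the lowest in 121 of 241 rows, against 50 rows for replicate 2 and 70 for replicate 3. Among the 30 most variable rows with at least 100 mean reads, it was the lowest in 25. Replicate 2 was in turn the highest in 127 of the 241 rows and in 21 of the same 30. Part of the pattern is thus a difference between replicates 1 and 2. Shares add up to a fixed total, so a larger share in the leading rows lowers the others. The 10 most abundant rows held 48.3% in replicate 1 and 42.3% in replicate 2. The TMM scaling factors from edgeR were 0.925, 1.09 and 0.991 for replicates 1, 2 and 3. How many rows were lowest in replicate 1 after such scaling was not tested. All 8 rows of 18 bases, the shortest member rows, were lowest in replicate 1, and their median CV was 61.3%. Of these 8 rows, 3 share 1 sequence, and the median of 61.3% is the CV of that sequence. The 99 rows of 22 bases had a median CV of 13.0% and were lowest in replicate 1 in 44 cases. The median CV was 12.4% without replicate 1, 13.9% without replicate 2 and 17.3% without replicate 3, over rows past the minimum in the libraries left. The biological coefficient of variation was 13.9%, 19.7% and 24.5% in the same order. Replicate 1 also had the smallest share of predicted rows, and 27.4% of its raw reads fell to the adapter and length filter against 24.6% and 20.1% in replicates 2 and 3. The part of these values in the result was not tested.

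**Figure D5:**
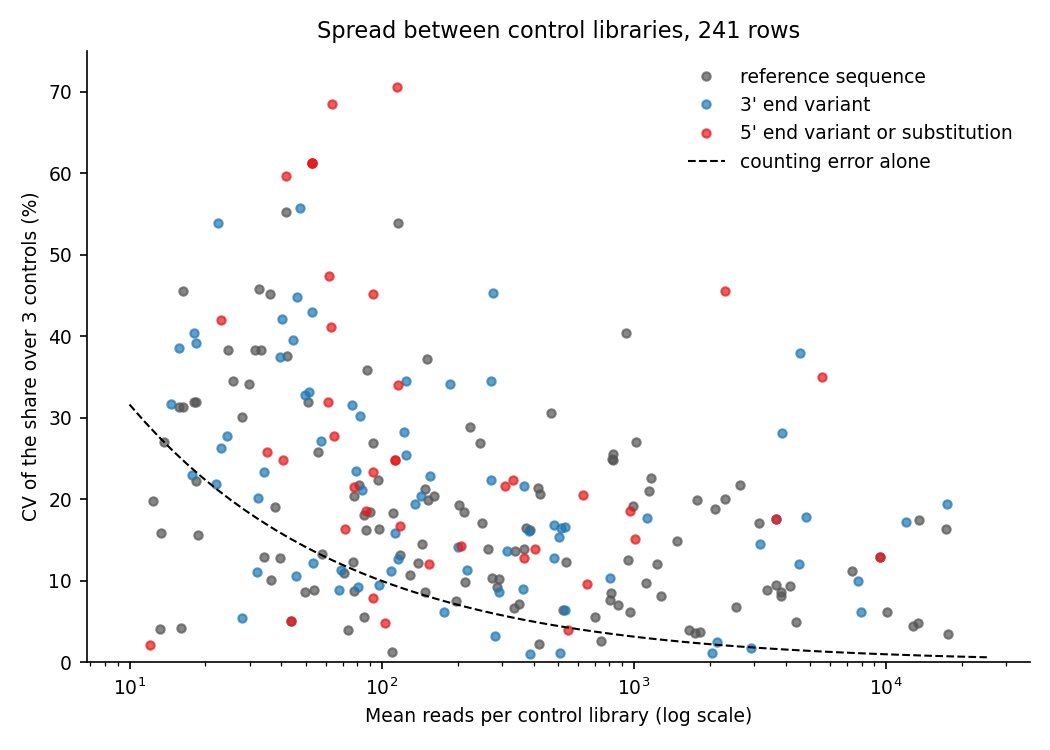
CV of the share over the 3 control libraries (%) against mean reads per library (log scale) for the 241 member rows, coloured by variant class, with a dashed line for counting error alone. In all, 199 rows had a CV above their own counting value, and the highest point, at 70.5%, is a miR-2137 row.

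The cell type label was checked against microRNAs known from pigment cells. The sums of this and the following lists take every mouse-named row of the listed names, also rows under the minimum, except where member rows are said to hold the share. A name can have a row for each arm, so the number of member rows is not the number of names found. The list of 7 names had 7 member rows and summed to 6.77%, 6.66% and 7.15% of mouse-named reads, with a median of 0.159% per member row against 0.0505% over all member rows. Most of the sum was miR-146a-5p, which many cell types make, and without miR-146a the list summed to 0.841%, 0.841% and 0.932% (0.872% ± 0.0523). MiR-211-5p, made from an intron of the melanocyte gene Trpm1 (chr7:64205806-64205911 on the plus strand) and known as an MITF target, had 583, 721 and 1169 reads, or 0.276% ± 0.0686, highest in replicate 3. MiR-204-3p, from a close relative of miR-211, had 13, 17 and 25 reads, whereas the 5p row miR-204-5p_R+2_1ss17AT was listed at 0. That row is a longer form with a substitution, so its 0 does not give the level of the reference miR-204-5p. MiR-221-3p took 0.393% ± 0.0825, miR-148a-3p 0.159% ± 0.0487 and miR-222-3p 0.0298% ± 0.00483. No reads were listed for miR-137, a repressor of Mitf.

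Markers of other cells ranged from none past the minimum to shares above those of the pigment list without miR-146a. The 7 names of keratinocytes and other epithelia, including miR-200c and miR-205, had 0 member rows and summed to 0.0149%, 0.0201% and 0.00685%. The 4 red blood cell names had 4 member rows, both arms of miR-144 among them, and summed to 0.151%, 0.292% and 0.260%. For miR-486a no reads were listed. The 4 white blood cell names had 3 member rows and 0.0685% ± 0.0204, led by miR-142a-5p_L+2R-3. The endothelial miR-126a rows summed to 0.298% ± 0.0432, with a median of 0.149% per member row. The 7 neuronal names had 7 member rows, all of miR-9, miR-128, miR-129 or miR-138. This list summed to 0.546% ± 0.0201, with a median of 0.0531% per member row, led by miR-129-5p at 0.179% ± 0.0115. MiR-218 and miR-219a had no member row, and no reads were listed for miR-124.

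The 7 fibroblast and smooth muscle names had 7 member rows and 0.991% ± 0.0428, with a median of 0.0505% per member row. This list was led by miR-143-3p at 0.566% ± 0.0224 and miR-140-3p_L-1R+2. MiR-199a had no member row, and no reads were listed for miR-145b. The sum of the list lay above that of the pigment list without miR-146a in every library, and miR-143-3p lay above miR-211-5p. The liver microRNA miR-122-5p was the most abundant marker outside the pigment list, and its R-1 row ranked 17th with 3030, 3394 and 7256 reads. Its share was 1.10%, 1.26% and 2.16%, highest in replicate 3. Cow-named rows were highest in replicate 2, at 3.34% of tabulated reads, and the medium held serum. Their part in the miR-122 share was not tested. The 6 muscle names had 0 member rows and summed to 0.00690%, 0.00353% and 0.191%.

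MicroRNAs reported in other work to repress Mitf had 11 member rows, which held 5.74% ± 0.418, with a median of 0.333% per row. The most abundant were miR-25-3p with 4380, 3954 and 4887 reads, miR-26a-5p at 1.16% ± 0.103, miR-27a-3p_R-1 at 1.08% ± 0.157 and miR-152-3p at 0.793% ± 0.159. No reads were listed for miR-182, miR-96 or miR-183, the 3 names of the miR-183 cluster.

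Genomic clusters, which are transcribed as 1 RNA, contributed unequally. The miR-23, miR-27 and miR-24 clusters had 8 member rows and 7.07% ± 0.968, led by miR-27b-3p and miR-24-3p_R-2. The miR-17-92 cluster and its paralogs, known for promoting proliferation, had 13 member rows and 5.33% ± 0.538, led by miR-25-3p, miR-92a-3p_R+1 at 0.992% ± 0.0180, miR-20a-5p at 0.903% ± 0.197 and miR-17-5p at 0.725% ± 0.136. The names listed for the clusters of miR-99, let-7 and miR-125 had 14 member rows and 10.9% ± 0.789. Not all of this share can be assigned to those clusters. The let-7a-1 hairpin lies on chr13, where no miR-99, miR-100 or miR-125 hairpin was listed. Let-7c-5p has hairpins on chr15 and chr16, and its sequence, shared with let-7a-5p_1ss19AG, held 6.41% ± 0.831. The listed rows overlap the let-7 family described above.

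The imprinted Dlk1-Dio3 cluster had 7 member rows for 52 names, which held 0.515% ± 0.145, led by miR-369-3p at 0.344% ± 0.0927, and 34 of its names had no reads listed. The X-linked miR-322 and miR-503 cluster had 10 member rows and 0.509% ± 0.0291, with miR-351-5p_R-3 at 0.125% ± 0.0113 first. The miR-29 clusters had 3 member rows and 1.60% ± 0.1998, nearly all in miR-29a-3p_R-1. The miR-143 and miR-145 cluster had 2 member rows and 0.587% ± 0.0295. The miR-221 and miR-222 cluster at chrX:19146294-19146971 had 2 member rows and 0.423% ± 0.0805, and miR-221-3p was 13.2-fold above miR-222-3p. MiR-191-5p, at 1.31% ± 0.114, was 32.8-fold above miR-425-5p_R-1 of the same cluster at chr9:108568319-108568861; this pair was named after its values were seen.

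The minimum of 10 reads left out rows that held 0.382% ± 0.144 of mouse-named reads. Of these 265 rows, 113 were listed at 0 in every control and 152 were above 0 in some control. Just inside the limit were 9 rows whose lowest library held 10 to under 12 reads, such as miR-130b-5p with 10, 11 and 20. Just outside were 11 rows with 8 to under 10, such as miR-500-3p_R-1 with 9, 16 and 16.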

How the data were processed

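Small RNA of the 3 control libraries was analysed. The authors deposited estimated counts per sequence row, which need not be whole because reads matching several rows are split, and, per the file headers, a normalized signal, each value being the estimated count over a factor of its library. A further deposited table gives the count of reads per class. The submitters' processing notes name mm9. No aligner is named in the sources used here. Positions and sequences come from RefSeq on GRCm38.p6, host genes from GENCODE M21 on GRCm38, with no conversion, and RefSeq's microRNA table is not complete. The remaining 27 per-sample columns were not used, since no contrast was made.

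Shares are percentages of mouse-named reads, with mean ± SD (n = 3). No test was run. Counts were rounded for edgeR 4.0.16 (R 4.3.3, TMM scaling), with DESeq2 1.42.0 size factors as an alternative. Functions were tested on simulated data. Named rows were the 20 most abundant, leads of the 10 largest families, extremes of arm ratio and CV (at least 100 mean reads), the 5 leading 5′ variants and substitutions, and up to 4 members of each of 19 lists. Members and lists were chosen with earlier results of these data known.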

Additional observations from a re-analysis of the deposited data

Results flagged for a closer look

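Rows outside the members also held reads in the control libraries. MiR-1a-3p, a microRNA of heart and skeletal muscle, had 6 reads in replicate 1, 0 in replicate 2 and 522.5 in replicate 3, the highest value of any mouse-named row that missed the minimum. MiR-206-3p, of skeletal muscle, had 13, 7 and 94 reads, and the miR-133a-3p_L-1R+1 row had 0, 2.5 and 25, so that all 3 were highest in replicate 3. MiR-5124a_L-1_1ss5CA had 43, 0 and 54 reads. Rows were picked here for at least 50 reads in a control library, except miR-133a, which was named after its values were seen.

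Rows that do not carry a mouse name took a sizeable part of the tabulated reads. Predicted rows held 17.9%, 25.8% and 26.97% (23.5% on average), and cow-named rows 1.54%, 3.34% and 2.13% (2.33% on average).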

How the results depend on the processing

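Of 54 alternative values for 9 results, 42 stayed within 1 SD between replicates, or within 1.5 times for counts. For the coefficients of variation the SD of the leave-one-out values stood in. With all tabulated rows as denominator, the 10 leading rows held 33.6% and the let-7 family 17.7%. Taking precursor names with either arm past the minimum, again paired by exact name, 93 favoured 5p. With 0.5 read added, their median arm distance was 6.35 on the log2 scale. By rows, 42.7% had an end variant, and without the most abundant row 29.2% of reads did. The biological coefficient of variation was 25.04% with the filterByExpr filter on all rows. Leaving out 1 library at a time gave 2.19 to 2.65 for the arm distance and 12.4% to 17.3% for the median CV. For both, the minimum of 10 reads was applied anew to the libraries left, so the rows and precursors counted could change. The biological coefficient of variation, with the member rows kept, was 13.9% to 24.5%. The lower CV values rest on pairs of libraries. The cause of these shifts was not tested. Alternatives chosen after seeing the data changed little: summing rows of 1 sequence put 48.1% in the first 10, and without rows under 20 bases the median CV was 16.8%. No paired analysis was possible because no test was run and only 1 group was described. Depth limits rows near 10 reads, where counting error was a large part of the spread.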
